A study of Mus musculus with 4 samples.

Results

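The genes described here are 44 genes of DNA replication and S phase, chosen by name: factors that load and activate the replicative helicase, polymerases and fork proteins, enzymes of nucleotide supply, and regulators of S phase entry. The choice was made with earlier results of these data known, so shares set beside those of all genes describe the set and test nothing. All 44 were found by symbol among the 19938 genes that have a probe set of their own, and 43 of them passed the filter on level, the exception being Gmnn. Skin of E17.5 (embryonic day) mice was profiled on 4 Affymetrix whole-transcript arrays, each with RNA pooled from 2 mice. The Ovol2 BT group (2 arrays) carried TRE-Ovol2-Flag together with K5-tTA, so that a tetracycline transactivator driven by a keratin 5 promoter, active in basal keratinocytes, switches on a tagged Ovol2. The Control group (2 arrays) carried TRE-Ovol2-Flag alone or was wild type. All embryos were labelled female and were described as littermates, yet the strain is given as FVB/N for Ovol2 BT and CB6F1 for Control, so strain and transgene cannot be told apart from the labels. The series asks how epidermal differentiation differs when Ovol2, a zinc finger transcription factor of epithelia, is overexpressed.

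Before a cell divides, the origin recognition complex with Cdc6 and Cdt1 loads the ring-shaped Mcm2-7 helicase onto DNA, Cdc45 and the GINS complex switch the helicase on, and polymerases held by the PCNA clamp copy both strands. Many of these genes are transcribed in late G1 by E2F factors, which cyclin E and its kinase release from the retinoblastoma protein. In fetal skin, dividing cells lie mainly in the basal layer of the epidermis and in growing hair follicles, with further dividing cells in dermis, vessels and blood.

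Ovol2 had intensities of 4367 and 3893 in the Ovol2 BT arrays, against 360 and 161 in the Control arrays (log2 difference 4.004, SE 0.33, limma adjusted p = 0.00311). The median intensity over all probe sets was 126 and 132 in the Ovol2 BT arrays and 123 and 126 in the Control arrays. Skin markers were abundant in every array, among them Krt14 (2832 and 2170 in Ovol2 BT, against 6529 and 5261 in Control) and the collagen gene Col1a1 (9027 and 7317 in Ovol2 BT, against 7835 and 7405 in Control). Nothing states whether arrays of 1 group come from separate litters, so p-values measure the spread between these arrays alone. The small number of arrays limits the precision of every value: with 2 against 2, an exact two-sided permutation test of a single value cannot go below p = 0.333.

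With arrays scaled as deposited, values of most replication genes were lower in Ovol2 BT skin, by a modest amount. Of the 44 genes, 43 had a negative difference on the log2(intensity + 16) scale used throughout, and the median log2 difference was -0.48 (quartiles -0.57 and -0.36). Over all 14953 genes tested, the median was -0.04 and 55.6% of genes had a negative difference. The 1 positive value was that of E2f1 (0.04). In 35 of the 44 genes both Ovol2 BT arrays lay below both Control arrays. Among the 43 tested this was so for 34 (79.1%), against 21.9% of all genes tested. The opposite order, both Ovol2 BT arrays above both Control arrays, was found for 0 of the 43 and for 20.4% of all genes. No gene of the set was called by limma at an adjusted p under 0.05, lower or higher (smallest adjusted p = 0.133, Gins1), where 0.963% of all genes were called, 0.348% lower and 0.615% higher. At an unadjusted p under 0.05, 18 of the 43 were lower (41.9%, against 5.24% of all genes) and 0 were higher (against 5.11%).

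How many genes passed a threshold depended on single arrays, in this set and over all genes, while the median of the set moved little. Without Ovol2 BT replicate 2, the differences of Orc1, Gins1, Pole2 and Rfc4 were -0.96, -0.88, -1.39 and -1.60. Without Ovol2 BT replicate 1 they were -0.51, -0.54, -0.71 and 0.11. The median over the 44 genes lay between -0.52 and -0.46 with any 1 array left out, and 41 to 43 of them were negative. With 1 array left out, the spread comes from the 2 arrays of the other group alone, and both groups are assumed to vary alike. With either Control array left out limma also used the variance expected at each gene's level, not the gene's own spread. Counts of replication genes passing a threshold are therefore not given for fits that leave 1 array in a group. The direction is relative to the array as a whole and turned under 1 scaling. With arrays centred on the median level of 17 epithelial junction genes, the median of all genes was 0.67 and that of the replication genes 0.23. There 8 of the 44 had a negative difference and E2f1 was called higher (limma adjusted p = 0.0215). At an unadjusted p under 0.05, 0 were lower, against 0.328% of all genes. In that fit limma gave each gene the variance expected at its level. Its calls, that of E2f1 among them, thus do not rest on each gene's own spread. With arrays centred on the mean of the same 17 genes, a scaling chosen after seeing the data, the median of all genes was 0.24. The median of the replication genes was then -0.20, and 40 of them had a negative difference. At an unadjusted p under 0.05, 6 were lower, against 1.17% of all genes. Both scalings shift all differences by 1 amount, so the distance of the replication genes from all genes was -0.44 in both and with the deposited values, and 43 of 44 lay below the median of all genes in each. Calls over all genes split into 41 lower and 8609 higher with the median as centre and 21 lower and 179 higher with the mean, against 52 lower and 92 higher with the deposited values.

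**Figure D1:**
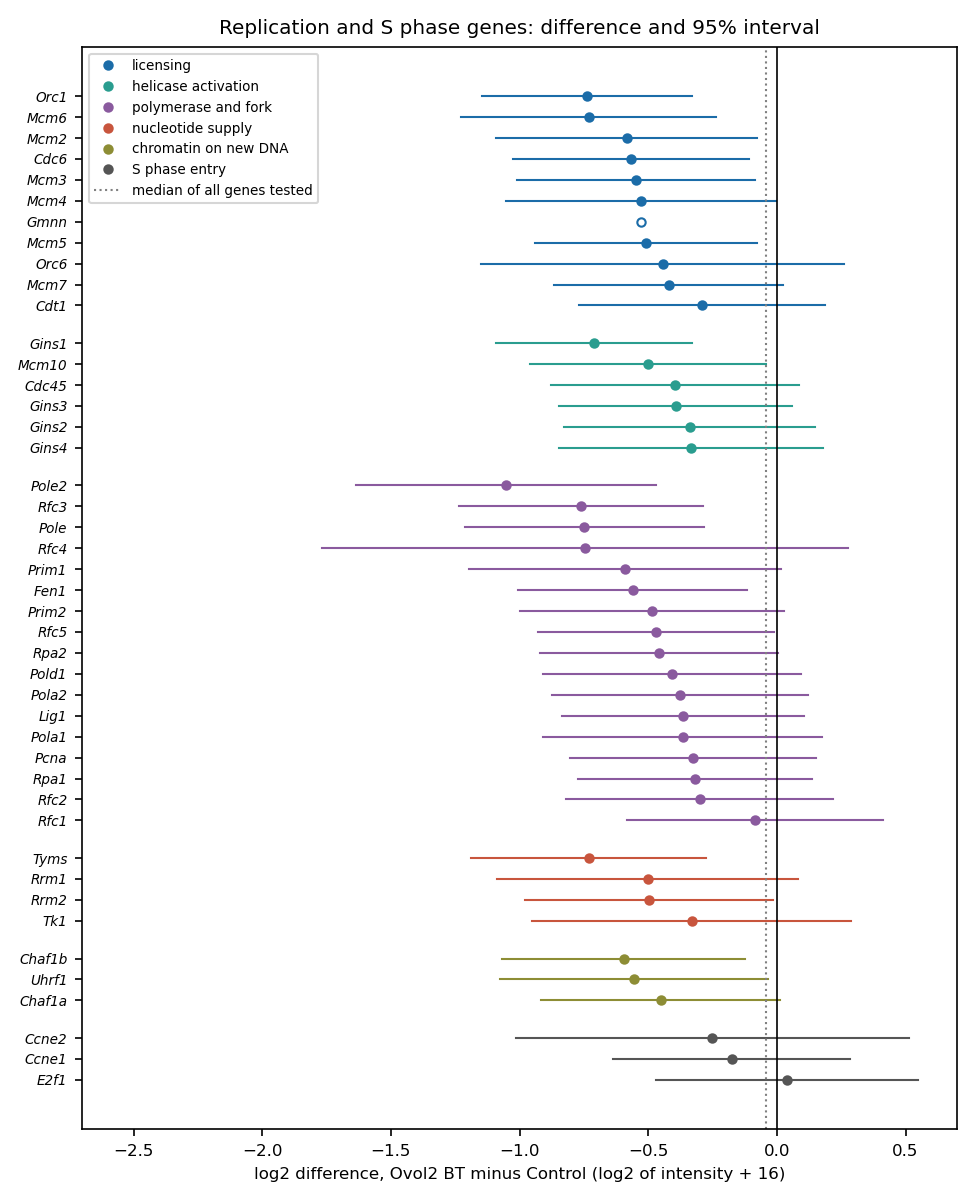
Difference between Ovol2 BT and Control for each of the 44 genes, by role, on the log2(intensity + 16) scale. Points are differences of the means of 2 arrays, bars are 95% intervals from limma, the open point is Gmnn (below the level filter, not tested), and the dotted line is the median of all genes tested (-0.04). With arrays as deposited, all points but that of E2f1 lie left of 0, from -1.05 for Pole2 to -0.08 for Rfc1, and many intervals reach 0.

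Many promoters of the set hold words of the kind that E2F factors are known to bind. RefSeq promoters (GRCm38.p6, from 250 bases before to 50 after each start) were matched for 35 of the 44 genes and searched on both strands for 3 kinds of word: an E2F word (TTTGGCGC, TTTCCCGC, TTTGCCGC or TTTCGCGC), the NF-Y word CCAAT, and the cell cycle homology region word TTTGAA. Words may share letters, as 2 pairs of E2F words do in the stretches below, and each word was counted wherever it stood. An E2F word was present for 14 of 35 genes (40%), against 3.48% of the 15614 genes that have both a probe set and a promoter entry. A gene with several entries counted if any of them held the word. For Lig1, Mcm7 and Uhrf1 an E2F word stood in some entries and not in others. CCAAT was present for 60%, against 41.7%, and TTTGAA for 11.4%, against 17.3%. In the list of mitosis genes the order was the other way round, with an E2F word in 3.23% and TTTGAA in 77.4% of 31 promoters. By role, 7 of 9 licensing promoters held an E2F word, 5 of 14 of polymerase and fork genes, and 0 of 4 of the nucleotide genes. The median log2 difference was -0.53 over the 14 genes with an E2F word and -0.46 over the 21 without one, with ranges of -1.05 to -0.29 and -0.75 to 0.04 that overlap. A matching word is only a description of these letters and not a bound site. The 200 bases before the start are shown for the 5 genes of smallest p that hold an E2F word there, since the words stand at different distances in genes whose differences lie between -0.76 and -0.51. Capitals of 8 letters or more mark E2F words and capitals of 5 letters mark CCAAT or its complement ATTGG.
Orc1: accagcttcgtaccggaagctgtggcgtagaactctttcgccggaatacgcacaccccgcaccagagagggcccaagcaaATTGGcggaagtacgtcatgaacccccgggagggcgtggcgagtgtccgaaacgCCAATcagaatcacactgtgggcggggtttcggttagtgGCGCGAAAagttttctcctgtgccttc
Rfc3: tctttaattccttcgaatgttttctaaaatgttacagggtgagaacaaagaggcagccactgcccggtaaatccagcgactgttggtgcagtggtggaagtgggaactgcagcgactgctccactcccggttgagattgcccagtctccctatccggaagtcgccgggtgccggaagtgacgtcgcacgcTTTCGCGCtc
Mcm6: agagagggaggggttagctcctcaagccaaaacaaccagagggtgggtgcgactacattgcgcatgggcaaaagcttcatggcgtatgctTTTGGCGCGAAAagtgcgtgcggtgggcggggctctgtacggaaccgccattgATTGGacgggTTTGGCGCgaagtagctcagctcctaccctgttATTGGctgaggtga
Cdc6: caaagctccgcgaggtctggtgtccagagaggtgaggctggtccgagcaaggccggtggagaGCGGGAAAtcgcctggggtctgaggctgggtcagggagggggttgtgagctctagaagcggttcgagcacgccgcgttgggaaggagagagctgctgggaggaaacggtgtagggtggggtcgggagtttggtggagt
Mcm5: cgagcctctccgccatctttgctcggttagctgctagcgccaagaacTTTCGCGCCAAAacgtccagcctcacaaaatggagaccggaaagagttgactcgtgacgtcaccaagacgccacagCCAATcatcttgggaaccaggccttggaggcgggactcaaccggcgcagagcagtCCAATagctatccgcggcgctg
These stretches lie at chr4:108579254-108579453 (plus strand) for Orc1, chr5:151651209-151651408 (minus strand) for Rfc3, chr1:128359706-128359905 (minus strand) for Mcm6, chr11:98907951-98908150 (plus strand) for Cdc6 and chr8:75109309-75109508 (plus strand) for Mcm5, all GRCm38.p6, each written 5′ to 3′ on the gene's strand and ending at the base before the start. Mcm6 has 3 E2F words, a pair that overlaps and a single one 47 bases before the start. Mcm5 has an overlapping pair 153 and 149 bases before the start, Cdc6 a single word at 138 bases, and Orc1 a single word at 27 bases. Rfc3 has a word at 10 bases and another that begins at the start itself, just outside the printed stretch.

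**Figure D2:**
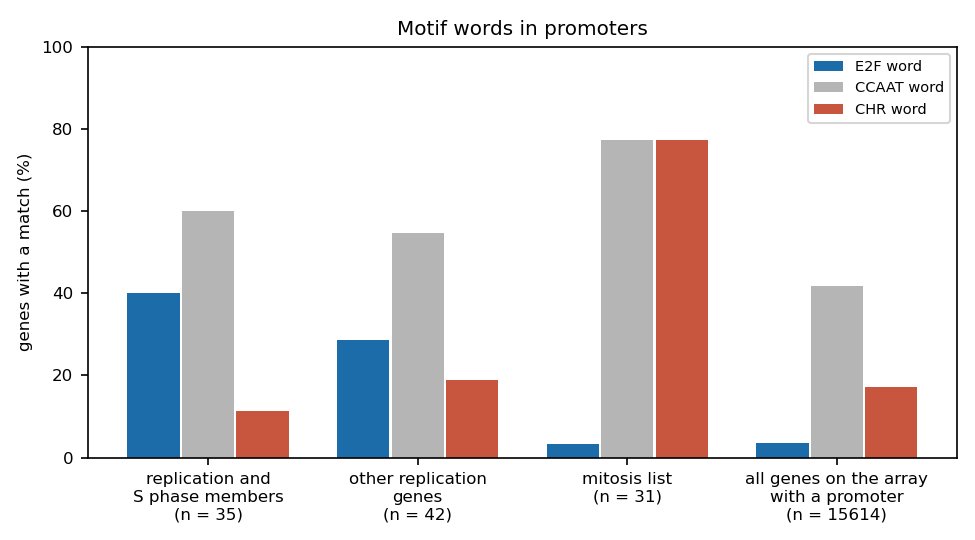
Share of genes whose promoter (250 bases before to 50 after the start, either strand) holds an E2F word, CCAAT or the TTTGAA word (labelled CHR), in percent of genes with a RefSeq promoter, for 4 sets of genes. The E2F word is at 40% in the replication genes and at 3.48% in all genes on the array with a promoter, while TTTGAA is at 77.4% in the mitosis list.

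No licensing gene was called, and all 11 had a negative difference (median -0.53). Of the 10 tested, 7 were lower at an unadjusted p under 0.05, against 5.24% of all genes tested. In 9 of the 10 both Ovol2 BT arrays lay below both Control arrays, against 21.9% of all genes tested. Orc1, the largest subunit of the origin recognition complex and the one that turns over in each cycle, had intensities of 53.1 and 78.1 in the Ovol2 BT arrays, against 116 and 121 in the Control arrays. Both Ovol2 BT arrays were below both Control arrays, and replicate 1 was the lowest (log2 difference -0.74, SE 0.18, 1.67-fold lower, limma adjusted p = 0.144). Each Orc1 value lay under the median intensity of its array. Mcm6, a subunit of the helicase ring, had 788 and 954 in Ovol2 BT, against 1290 and 1629 in Control (-0.73, SE 0.22, adjusted p = 0.265). Cdc6, the ATPase that loads the ring and whose promoter is shown above, had 218 and 214 in Ovol2 BT, against 306 and 353 in Control (-0.57, SE 0.20, adjusted p = 0.375). The other ring subunits lay close together, with differences of -0.58 for Mcm2, -0.55 for Mcm3, -0.53 for Mcm4, -0.51 for Mcm5 and -0.42 for Mcm7. All 6 subunits had both Ovol2 BT arrays below both Control arrays. Cdt1, which brings the ring to the origin, was at -0.29 (SE 0.21), the smallest difference of the group. Gmnn encodes geminin, the inhibitor of Cdt1. It was dim, with 45.6 and 40.9 in Ovol2 BT against 54.5 and 87.2 in Control, and lay under the level filter. Orc6 overlapped between groups, since Ovol2 BT replicate 2 (305) lay between the Control arrays (268 and 322) and only replicate 1 (145) was below them. Its difference was 0.05 without Ovol2 BT replicate 1 and -0.94 without Ovol2 BT replicate 2.

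No helicase activation gene was called. In all 6 genes both Ovol2 BT arrays lay below both Control arrays, against 21.9% of all genes tested. The median log2 difference was -0.39. At an unadjusted p under 0.05, 2 of the 6 were lower, against 5.24% of all genes tested. Gins1, a subunit of the GINS complex that joins the helicase at the fork, had intensities of 52.5 and 71.2 in Ovol2 BT, against 117 and 104 in Control. The 2 groups do not overlap for it, and it has the smallest p of the whole set (-0.71, SE 0.17, 1.64-fold lower, adjusted p = 0.133). Each Gins1 value lay under the median intensity of its array, as for Orc1. Mcm10, which helps start unwinding, had 222 and 244 in Ovol2 BT, against 352 and 321 in Control (-0.50, SE 0.20, adjusted p = 0.442). Gins3 had 123 and 155 in Ovol2 BT, against 170 and 204 in Control (-0.39, SE 0.20, adjusted p = 0.551). Its upper Ovol2 BT array was near its lower Control array. Cdc45, the third part of the active helicase, was at -0.40 (SE 0.21), and the remaining GINS subunits Gins2 and Gins4 were at -0.34 and -0.33. The 95% interval for Gins4 runs from -0.85 to 0.18, and differences between the 4 GINS subunits were not tested.

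Polymerase and fork genes held both the largest and the smallest difference outside S phase entry. All 17 had a negative difference (median -0.46). At an unadjusted p under 0.05, 5 were lower, against 5.24% of all genes tested. In 12 of the 17 both Ovol2 BT arrays lay below both Control arrays, against 21.9% of all genes tested. Pole2, Rfc3 and Pole had the most negative differences. Pole2, the second subunit of DNA polymerase epsilon, had intensities of 154 and 257 in Ovol2 BT, against 419 and 442 in Control. Its Control arrays were close together and its Ovol2 BT arrays were not (-1.05, SE 0.26, 2.07-fold lower, adjusted p = 0.144). Pole, the catalytic subunit that copies the leading strand, had 474 and 496 in Ovol2 BT, against 788 and 865 in Control (-0.75, SE 0.21, adjusted p = 0.212). Rfc3, a subunit of the clamp loader, had 229 and 269 in Ovol2 BT, against 452 and 411 in Control (-0.76, SE 0.21, adjusted p = 0.214). In all 3 both Ovol2 BT arrays were below both Control arrays.

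The remaining fork genes had smaller differences, apart from Rfc4. Fen1, the nuclease that trims lagging strand fragments, was at -0.56 (SE 0.20) and the primase subunits Prim1 and Prim2 at -0.59 and -0.49. Polymerase alpha, which extends the primers, was at -0.37 for Pola1 and -0.38 for Pola2, and Pold1, the catalytic subunit of polymerase delta, at -0.41. Lig1, which seals the fragments, was at -0.37 and the single-strand binding proteins Rpa1 and Rpa2 were at -0.32 and -0.46. Pcna, the sliding clamp, had 1951 and 2639 in Ovol2 BT, against 2578 and 3148 in Control (-0.33, SE 0.21). Its groups overlapped, and a second probe set of the gene gave the same difference (-0.33). That probe set had nearly the same intensities (1950 and 2559 in Ovol2 BT, 2552 and 3118 in Control). It may thus not be a separate measure. The 5 clamp loader genes spanned most of this range, and differences between them were not tested. Rfc5 was at -0.47 and Rfc2 at -0.30, whereas Rfc1, the large subunit, was at -0.08 (95% interval -0.58 to 0.41). Rfc4 rested on 1 array: it had 141 and 496 in Ovol2 BT, against 448 and 471 in Control. Ovol2 BT replicate 2 was thus above both Control arrays, and the difference of -0.75 (SE 0.45) was 0.11 without Ovol2 BT replicate 1 and -1.60 without Ovol2 BT replicate 2.

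All 4 nucleotide supply genes had negative differences (median -0.50). At an unadjusted p under 0.05, 2 of them were lower, against 5.24% of all genes tested. Tyms encodes thymidylate synthase, which makes the precursor of thymidine triphosphate, and had intensities of 584 and 590 in Ovol2 BT, against 957 and 1014 in Control. Replicates agreed closely in both groups (-0.73, SE 0.20, 1.66-fold lower, adjusted p = 0.214). Rrm2, the cell cycle regulated subunit of ribonucleotide reductase, had 887 and 1134 in Ovol2 BT, against 1338 and 1512 in Control (-0.50, SE 0.21, adjusted p = 0.469). Its partner Rrm1 had 845 and 1342 in Ovol2 BT, against 1347 and 1704 in Control (-0.50, SE 0.26, adjusted p = 0.555), and its groups barely separated. Tk1, the thymidine kinase of the salvage pathway, had 705 and 428 in Ovol2 BT, against 785 and 615 in Control (-0.33, SE 0.27, adjusted p = 0.689). Ovol2 BT replicate 1 lay between the Control arrays there, and the difference was 0.02 without Ovol2 BT replicate 2. A second probe set of Tk1 gave -0.38.

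The 3 genes that rebuild chromatin on new DNA had a median difference of -0.56. At an unadjusted p under 0.05, 2 were lower, against 5.24% of all genes tested. Chaf1b and Chaf1a encode subunits of chromatin assembly factor 1, which deposits histones behind the fork, and Uhrf1 recruits the maintenance DNA methyltransferase to newly copied DNA. Chaf1b had 594 and 551 in Ovol2 BT, against 939 and 810 in Control (-0.60, SE 0.21, adjusted p = 0.365). Uhrf1 had 733 and 525 in Ovol2 BT, against 951 and 890 in Control (-0.56, SE 0.23, adjusted p = 0.452). Chaf1a had 259 and 230 in Ovol2 BT, against 324 and 358 in Control (-0.45, SE 0.20, adjusted p = 0.494). In all 3 genes both Ovol2 BT arrays lay below both Control arrays, against 21.9% of all genes tested. Dnmt1, the methyltransferase that Uhrf1 recruits and not one of the 44 genes, was at -0.49 (SE 0.19, adjusted p = 0.423).

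S phase entry genes had a median of -0.18, and 0 of the 3 were lower at an unadjusted p under 0.05 (all genes: 5.24%). Their difference from the other roles was not tested. Ccne1, a cyclin E that starts S phase, had 814 and 852 in Ovol2 BT, against 1004 and 884 in Control (-0.18, SE 0.20, adjusted p = 0.777). Ccne2, the other cyclin E, had 192 and 201 in Ovol2 BT, against 152 and 365 in Control (-0.25, SE 0.34, adjusted p = 0.808). Its Control arrays lay on either side of both Ovol2 BT arrays, and its difference was 0.34 without Control replicate 2 and -0.84 without Control replicate 1. E2f1, the E2F factor best known for activating replication genes, had 864 and 639 in Ovol2 BT, against 727 and 718 in Control. Both Control arrays fell between the Ovol2 BT arrays (0.04, SE 0.22, adjusted p = 0.960), and the 95% interval ran from -0.47 to 0.55. With arrays centred on the mean of the junction genes, Ccne1 and Ccne2 were at 0.10 and 0.03.

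**Figure D3:**
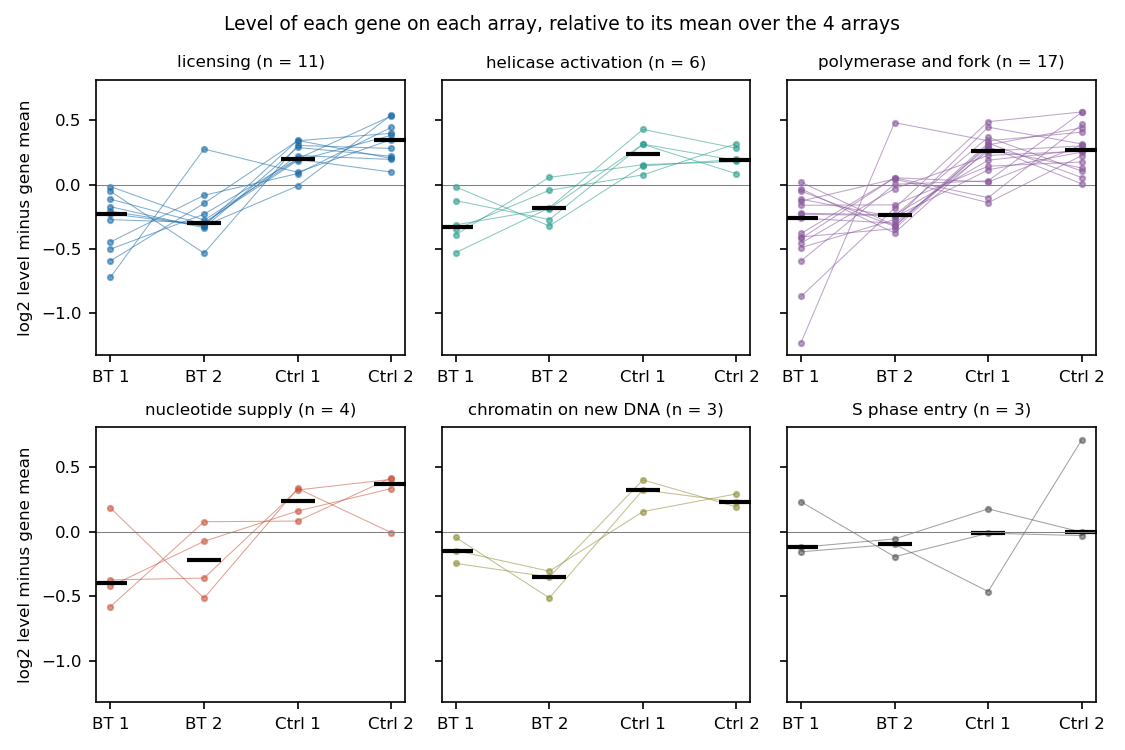
Level of each gene on each array as log2(intensity + 16) minus the mean of that gene over the 4 arrays, by role, with Ovol2 BT replicates 1 and 2 (BT 1, BT 2) left of Control replicates 1 and 2 (Ctrl 1, Ctrl 2). Thin lines join the values of 1 gene and black bars are medians. In every role but S phase entry the medians of both Ovol2 BT arrays lie below 0 and those of both Control arrays above it.

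The spread between replicates differed from gene to gene. Of the 44 genes, 21 were lowest on Ovol2 BT replicate 1 and 21 on Ovol2 BT replicate 2, while 17 were highest on Control replicate 1 and 25 on Control replicate 2. Replicate 2 exceeded replicate 1 in both groups for 19 genes, was below it in both for 14, and the order differed between groups for 11. Among genes with the first order were Prim1, Pola1, Rrm1, Mcm6 and Pcna, and among those with the second were Mcm2, Mcm5, Pold1, Rfc2 and Tk1. Across the 44 genes Pearson's r of the replicate difference between groups was 0.37, and it was 0.41 across all genes tested. Genes are not independent replicates and all points share the same 4 arrays, so these values only describe the set. The median replicate difference was 0.01 in Ovol2 BT and 0.05 in Control. In 41 of the 44 genes Ovol2 BT replicate 1 was below Control replicate 1, and in 41 it was below Control replicate 2. Ovol2 BT replicate 2 was below Control replicate 1 in 38 genes and below Control replicate 2 in 43.

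**Figure D4:**
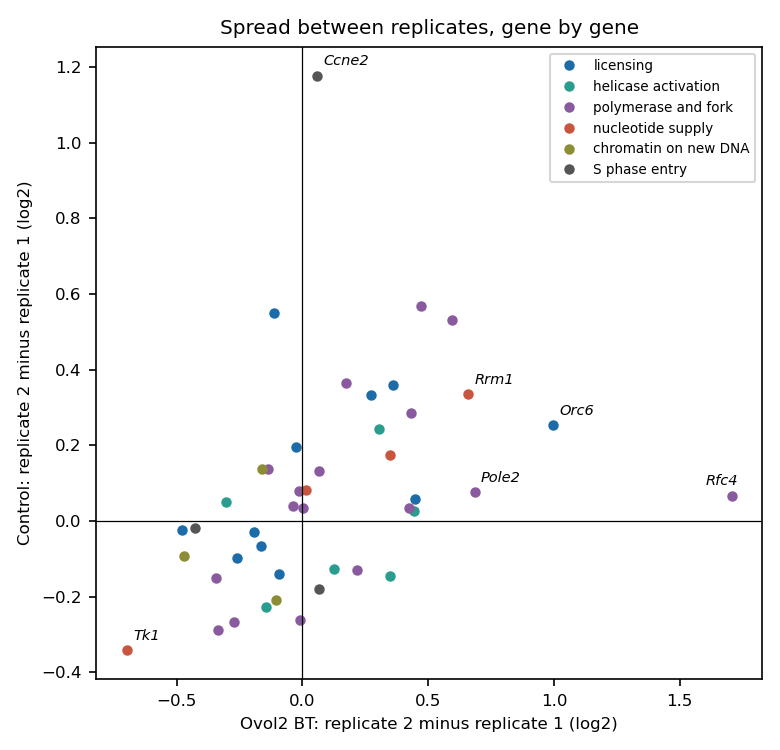
Replicate 2 minus replicate 1 for each of the 44 genes, in log2(intensity + 16), in Ovol2 BT (horizontal axis) and in Control (vertical axis), coloured by role. Named genes lie far from 0 on an axis. Rfc4 at 1.71 in Ovol2 BT and Ccne2 at 1.18 in Control lie farthest out.

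Other replication genes, taken from a list of 51 outside the 44, lay in the same direction. Of the 50 with a value, 48 had a negative difference, and the median was -0.38. None of the 49 tested was called, and 15 were lower (30.6%, against 5.24% of all genes) and 0 higher at an unadjusted p under 0.05, a count that was 4 without Control replicate 2, 5 without Ovol2 BT replicate 1 and 24 without Ovol2 BT replicate 2. Cdca7, a chromatin factor of dividing progenitors, had the smallest p, with 695 and 568 in Ovol2 BT against 1239 and 1263 in Control (-0.98, SE 0.21, adjusted p = 0.0884). Exo1, a repair nuclease, had 130 and 138 in Ovol2 BT, against 243 and 263 in Control (-0.84, SE 0.19, adjusted p = 0.102). Dna2, a nuclease of fragment processing, and Tipin, a fork protection factor, were at -0.75 and -0.81. The exceptions in direction were Rrm2b (0.31), the reductase subunit used outside S phase, and Pold4 (0.26), a small polymerase delta subunit. How many genes of the list passed a threshold also changed with 1 array left out.

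Replication-dependent histone genes, whose transcripts accumulate during S phase, differed less between the groups, although that contrast was not tested. A total of 26 such genes had a probe set of their own and 21 had a negative difference, yet their median was -0.13. Of the 24 tested 0 were called. At an unadjusted p under 0.05, 0 were lower and 1 was higher, against 5.24% and 5.11% of all genes tested. The higher one was H2bc4, with 1235 and 1361 in Ovol2 BT against 918 and 744 in Control (0.64, SE 0.21, limma adjusted p = 0.328). Only 1 of the 24 (4.17%) had both Ovol2 BT arrays below both Control arrays, against 21.9% of all genes. Their summed intensity was 57904 and 42518 in Ovol2 BT, against 54793 and 52558 in Control, and Ovol2 BT replicate 2 was the lowest array. Copies of these genes are nearly alike in sequence, so a probe set may report several of them. Slbp, which binds the histone messenger RNA end, was at -0.04 (SE 0.25).

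Among regulators of the cycle, 1 gene passed the test. Mycn, a growth-promoting transcription factor related to Myc, fell to 112 and 127 in Ovol2 BT, against 401 and 375 in Control (-1.58, SE 0.20, 2.98-fold lower, limma adjusted p = 0.0076). With any 1 array left out its difference was -1.65 to -1.50. Mycn was the only called gene of 28 in the list of E2F and cyclin control, whose median was -0.33. Of all genes tested 0.963% were called. Others of small p were Lin9 (-0.55, adjusted p = 0.282) and Fbxo5 (-0.56, adjusted p = 0.370), while Myc was at -0.44 and Cdk4 at -0.15. Among E2F factors, E2f8 and E2f7, repressors that are themselves E2F targets, were at -0.49 and -0.43, and E2f2 and E2f3 at 0.28 and -0.31. Cell cycle inhibitors showed no common direction, with 7 of 13 negative and a median of -0.07. Cdkn1b (0.14) and Cdkn1c (0.28), which hold cyclin-dependent kinases inactive, did not pass the test, and the inhibitor gene Cdkn1a shares its probe set with another name and was not used. Mitosis genes had a median of -0.38, all 36 with a negative difference and 0 called. At an unadjusted p under 0.05, 9 of the 36 were lower, against 5.24% of all genes tested. Cdc25c, a phosphatase of mitotic entry, was at -0.77 (SE 0.19, adjusted p = 0.152) and Mki67, a marker of cycling cells, at -0.16 (SE 0.22, adjusted p = 0.812).

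Markers of cell types in skin also differed between the groups, and in bulk RNA fewer cells of a type and less RNA per cell cannot be told apart. Of all genes tested, 0.348% were called lower and 0.615% higher. At an unadjusted p under 0.05 the shares were 5.24% lower and 5.11% higher. Basal keratinocyte markers had a median of -0.44, with 3 of 13 tested called lower. These were Krt15, Krt5 and Krt14, and the summed intensity of the list was 18350.5 and 15489 in Ovol2 BT, against 31881 and 28780.4 in Control. Hair placode and matrix markers had a median of -0.64, with Lhx2, Msx2 and Edar called lower of 14 tested and sums of 8935 and 8127 in Ovol2 BT, against 12773 and 13417 in Control. Without Ovol2 BT replicate 2 Edar was not called (adjusted p = 0.0563), nor was it under quantile normalization (adjusted p = 0.0538), and with the mean of the junction genes as centre Edar, Msx2 and Tyr were not (adjusted p of 0.0698 or more). Suprabasal keratinocyte markers were at -0.25 with 0 of 10 called (3 of them lower at an unadjusted p under 0.05), with sums of 43916 and 41391 in Ovol2 BT, against 56729.5 and 44973 in Control. Dermal fibroblast markers stood at 0.06, with sums of 48079 and 47725 in Ovol2 BT and 47023 and 47499 in Control. Adipocyte markers were higher, with a median of 1.85, 7 of 11 called and sums of 21555 and 21381 in Ovol2 BT, against 9638 and 7316 in Control. Endothelial, immune and skeletal muscle markers had medians of 0.23, 0.24 and 0.24, with 0 called by limma and 0, 1 and 2 higher at an unadjusted p under 0.05. Melanocyte markers were at -0.54 with Tyr called of 7. In none of these lists was a marker under an intensity of 16 on all 4 arrays. The mean log2 level shifted by -0.48 over the 44 replication genes, by -0.38 over mitosis genes and by -0.28 over the junction genes. It shifted by -0.61 over basal keratinocyte, -0.63 over hair placode and matrix, -0.37 over suprabasal keratinocyte and -0.002 over dermal fibroblast markers. The part of these cell types in the difference of the replication genes was not tested.

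**Figure D5:**
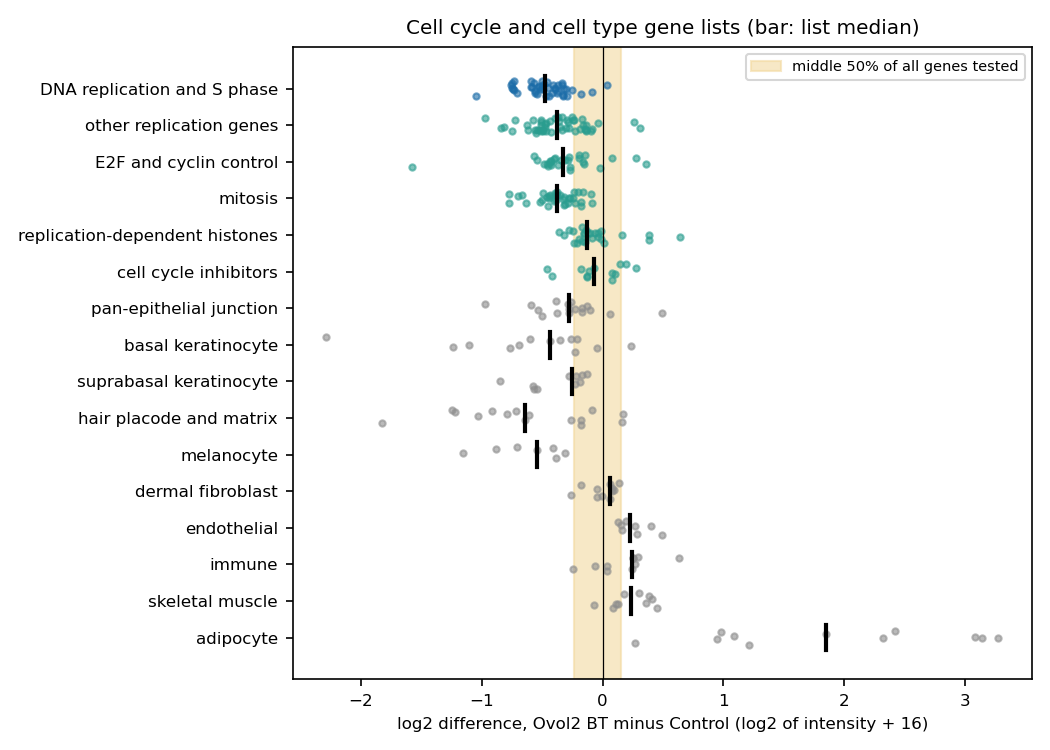
Log2 difference, Ovol2 BT minus Control, of each gene (points) in the replication set and in lists of cell cycle and cell type genes, with the list median as a black bar. The shaded band runs between the quartiles of all genes tested (-0.23 to 0.15). The replication set (-0.48), other replication genes (-0.38), mitosis genes (-0.38) and E2F and cyclin control (-0.33) have medians left of the band. So do hair (-0.64), melanocyte (-0.54), basal keratinocyte (-0.44), junction (-0.27) and suprabasal keratinocyte markers (-0.25). Histones (-0.13) and cell cycle inhibitors (-0.07) lie within it.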

How the data were processed

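Each probe set has 1 linear intensity per array, which the authors made with Expression Console 1.1.1 (Affymetrix) using PLIER 2.0, as the submitters' processing notes record. Background correction, normalization within PLIER and a genome build: not given in the sources used here. There are no detection calls. Of 35557 probe sets, 21789 name 1 gene by the platform annotation, 1621 name several and 12147 are not named. Symbols were checked through Entrez IDs against GRCm38.p6 names (21698 matched, 0 changed). For each gene the probe set of highest mean intensity stood for the gene.

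Groups and replicate numbers came from the sample titles. Values were tested as log2(intensity + 16), which understates differences of dim genes, without further normalization. The 25% of genes of lowest level (4985) were left out. The fit used limma 3.58.1 (R 4.3.3), with lmFit and then eBayes with its trend option, and had 2 residual plus 6.94 prior degrees of freedom. The prior degrees of freedom were infinite with arrays centred on the median of the junction genes and with either Control array left out. In those fits each gene took the variance expected at its level in place of its own. Two-sided p-values were adjusted by Benjamini-Hochberg across the 14953 genes fitted, and the code was tested on simulated data. Summaries used Python 3.11.15 and pandas 2.3.3, and figures matplotlib 3.10.9.

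The 44 genes and all lists were chosen with earlier results of these data known, so no list test was run. Every gene of the set may be named. Values per array are given for the 3 genes of smallest p in each role (all, in roles of 3 or 4), for any with a positive difference and, chosen after their values were seen, for Gmnn, Orc6, Pcna and Rfc4. Other lists give called genes and up to 4 of smallest p, and Krt5, Krt14 and Mki67 were to be given whatever their values. Dnmt1, Rrm2b, Pold4, Slbp, Myc, Cdk4, E2f7, E2f2, E2f3, Cdkn1b and Cdkn1c were added after their values were seen. Histone genes were found under current symbols, a form chosen after seeing the annotation. The alternatives were other pseudocounts (1, 64), filters (none, 50%), scalings, variance trends, probe set means, a block for replicate number, leaving out each array and a threshold of 0.10.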

Additional observations from a re-analysis of the deposited data

How the results depend on the processing

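Under other pseudocounts, filters, variance trends and probe set means, quantile normalization and median centring, 43 of the 44 replication genes kept a negative difference and 0 were called by limma. Under quantile normalization the median was -0.41 (nucleotide genes -0.44). At an unadjusted p under 0.05, 13 replication genes were lower under quantile normalization and 14 with median centring, in place of 18. Of all genes tested 4.47% were lower under each of these 2 scalings. By the labels, same-numbered arrays share nothing but the number. Pearson's r of the replicate difference between groups was 0.41 across all genes tested, and what lies behind it was not tested. With the replicate number as a block 671 genes were called in place of 144. Among them were 7 of the 44 (Orc1, Mcm6, Gins1, Pole, Pole2, Rfc3 and Tyms) and 5 other replication genes. In these 2 lists 33 and 26 genes had an unadjusted p under 0.05 and a lower value, against 13.2% of all genes tested.

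Leaving out 1 array gave 206 to 366 called genes, 0 to 4 of the 44 and 0 to 4 other replication genes, and counts at an unadjusted p under 0.05 of 6 to 18 and 4 to 24. Medians ranged from -0.55 to -0.40 (helicase activation), -0.70 to -0.46 (nucleotide supply), -0.65 to -0.37 (chromatin), -0.21 to 0.031 (S phase entry) and -0.58 to -0.23 (other replication genes). Tk1 ranged from -0.68 to 0.019, Ccne2 from -0.84 to 0.34 and E2f1 from -0.17 to 0.25. With the lower 50% of genes left out, 9 other replication genes had a lower value with an unadjusted p under 0.05 and 1 was called, and at a threshold of 0.10 also 1.

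Centring on the mean of the junction genes, chosen after seeing the data, gave 6 and 3 genes lower at an unadjusted p under 0.05, a median of -0.20 over the 44 and of -0.10 over other replication genes. By role the medians were -0.25 (licensing), -0.12 (helicase activation), -0.18 (polymerase and fork), -0.22 (nucleotide), -0.28 (chromatin) and 0.10 (S phase entry), with Ccne1 at 0.10 and Ccne2 at 0.027. Centring on the median of that list moved all genes further, to a median of 0.67, because the median level of these 17 genes differed by -0.71 between groups where their mean level differed by -0.28. There 8650 genes were called, 41 of them lower, with E2f1 (1 of the 44) and 5 other replication genes among the calls, 0 and 0 lower at an unadjusted p under 0.05 and 8 of the 44 negative. The medians were 0.23 over the 44, 0.33 over other replication genes, and 0.18, 0.31, 0.25, 0.21, 0.15 and 0.53 by role in the order above. Of the 43 negative genes, 35 turned positive there, and only Orc1, Mcm6, Gins1, Pole, Pole2, Rfc3, Rfc4 and Tyms did not. Among the genes given with values per array by rule, those that turned were Cdc6 (0.14), Mcm10 (0.21), Gins3 (0.31), Rrm2 (0.21), Rrm1 (0.21), Tk1 (0.38), Chaf1b (0.11), Uhrf1 (0.15), Chaf1a (0.26), Ccne1 (0.53) and Ccne2 (0.46), while the 44 stayed -0.44 below the median of all genes.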
